A study of Mus musculus with 6 samples.

Results

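The genes described here are 53 mouse genes of the interferon response and of MHC class I antigen presentation, found by symbol among the 55401 gene identifiers of the count table. All 53 were found. They comprise 4 interferon receptor chains, 6 nucleic acid sensors and their adaptors, 5 transcription factors, 26 antiviral effectors and 12 genes of class I antigen presentation. The last set also holds Cd274, which encodes a checkpoint ligand and not a part of antigen presentation. The rule takes genes by name and uses no measured value, but the list was drawn up with earlier results of these data known. The RNA-seq data are from mouse embryonic stem (ES) cells, with poly(A) RNA sequenced in 3 libraries of untreated cells labelled as expressing 3XHA-Taf13 and in 3 libraries labelled KO, from cells given doxycycline. TAF13 is a subunit of TFIID, the general transcription factor that places RNA polymerase II at promoters, and 3XHA is a peptide tag. Both groups were cultured for 7 days and each library came from its own Petri dish. The labels name no further allele, strain, promoter or clone, so the doxycycline, the knockout label and any shared parent line cannot be told apart.

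Interferons are secreted proteins that bind paired receptor chains and act through Janus kinases on STAT and IRF transcription factors. Complexes of STAT2 and IRF9 bind the interferon-stimulated response element, and STAT dimers bind the gamma-activated sequence, in the promoters of interferon-stimulated genes. Pluripotent cells are known for a weak interferon response and for little MHC class I on their surface, while holding some effector transcripts without any interferon. MHC class I molecules are heavy chains paired with beta-2 microglobulin, loaded in the endoplasmic reticulum with peptides that the proteasome cuts and the TAP transporter delivers.

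Total counts ran from 31219328 to 50328010 per library. Taf13 was not lower in the KO-labelled libraries: it had 244, 445 and 447 counts in the expressing and 422, 634 and 699 in the KO-labelled libraries (log2 fold change 0.40, adjusted p = 0.0578, edgeR quasi-likelihood test). The labels alone therefore give the direction of each change below. Expressing replicate 1 stood apart from the other expressing libraries, with a chi-square per degree of freedom of 33.9 and 27.5 against them and at most 5.67 for the remaining pairs within a group. The 8 markers of ES cells were all present, and all 8 were lower in the KO-labelled libraries, with summed levels of 2099 to 2144 CPM (read counts scaled to a common library size) per kilobase of exon in the expressing and 1372 to 1430.1 in the KO-labelled libraries. All 8 markers of primitive endoderm, an early extraembryonic lineage, were higher, with summed levels of 9.16 to 10.3 and 39.1 to 42.8. Of 8 fibroblast markers 2 were higher and 1 was lower, with overlapping sums of 15.2 to 19.3 and 12.6 to 23.3. Of 8 haematopoietic markers 5 were tested, and 2 were higher and 2 lower. The sums over all 8 were 8.94 to 10.1 and 11 to 13.9, of which Cd68 alone made 6.83 and 10.2 on average. Not tested were Tyrobp, with a total of 1 count in each group, Csf1r, with totals of 10 and 11, and Cd79a, with 29 and 13. No marker was at 0 in all libraries. The part of these shifts in the results below was not tested, and in bulk RNA fewer cells of a type and less RNA per cell cannot be told apart.

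Of the 53 genes, 47 had enough counts to be tested, and 15 were higher and 7 lower in the KO-labelled libraries, at an adjusted p under 0.05 (edgeR quasi-likelihood test, Benjamini-Hochberg adjustment over all 17778 tested genes). That is 31.9% higher and 14.9% lower, where 19.2% of all tested genes were higher and 20.8% lower, so the share of lower genes was under the background and that of higher genes above it. The median log2 fold change of the 47 was 0.11, against -0.01 over all tested genes, with single genes from -2.40 to 1.19. In all 22 called genes the CPM of the 3 libraries of each group did not overlap. Nor did it in uncalled genes such as Ifnar1, Ifngr2, Isg15, Dtx3l, Parp14 and Psmb9. The share over all tested genes was not taken, so the lack of overlap adds no support to the calls. Among receptors, sensors and transcription factors 4 of 14 tested genes rose and 0 fell (0 also at an unadjusted p under 0.05 in edgeR, and by DESeq2). Among effectors 7 of 21 rose and 4 fell, and among antigen presentation genes 4 of 12 rose and 3 fell. With libraries scaled by their totals alone, 63.5% of the calls over all genes were higher, against 48.1% in the analysis reported, and 20 of the 53 genes were higher and 6 lower. Without expressing replicate 1, 22 were higher and 8 lower, 9 of the higher ones in antigen presentation. In that fit 4851 of all 18542 tested genes were higher and 4589 lower, against 3422 and 3695 of 17778 in the analysis reported. Without KO replicate 2, 11 were higher and 6 lower, and 2 receptor, sensor or factor genes were higher. There 2541 of all 18044 tested genes were higher and 2647 lower. Ifit1 and H2-T23 passed the count filter only through the expressing libraries and Usp18 only through the KO-labelled ones. The filter itself therefore favoured a difference in these 3, and their calls give no separate support.

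**Figure D1:**
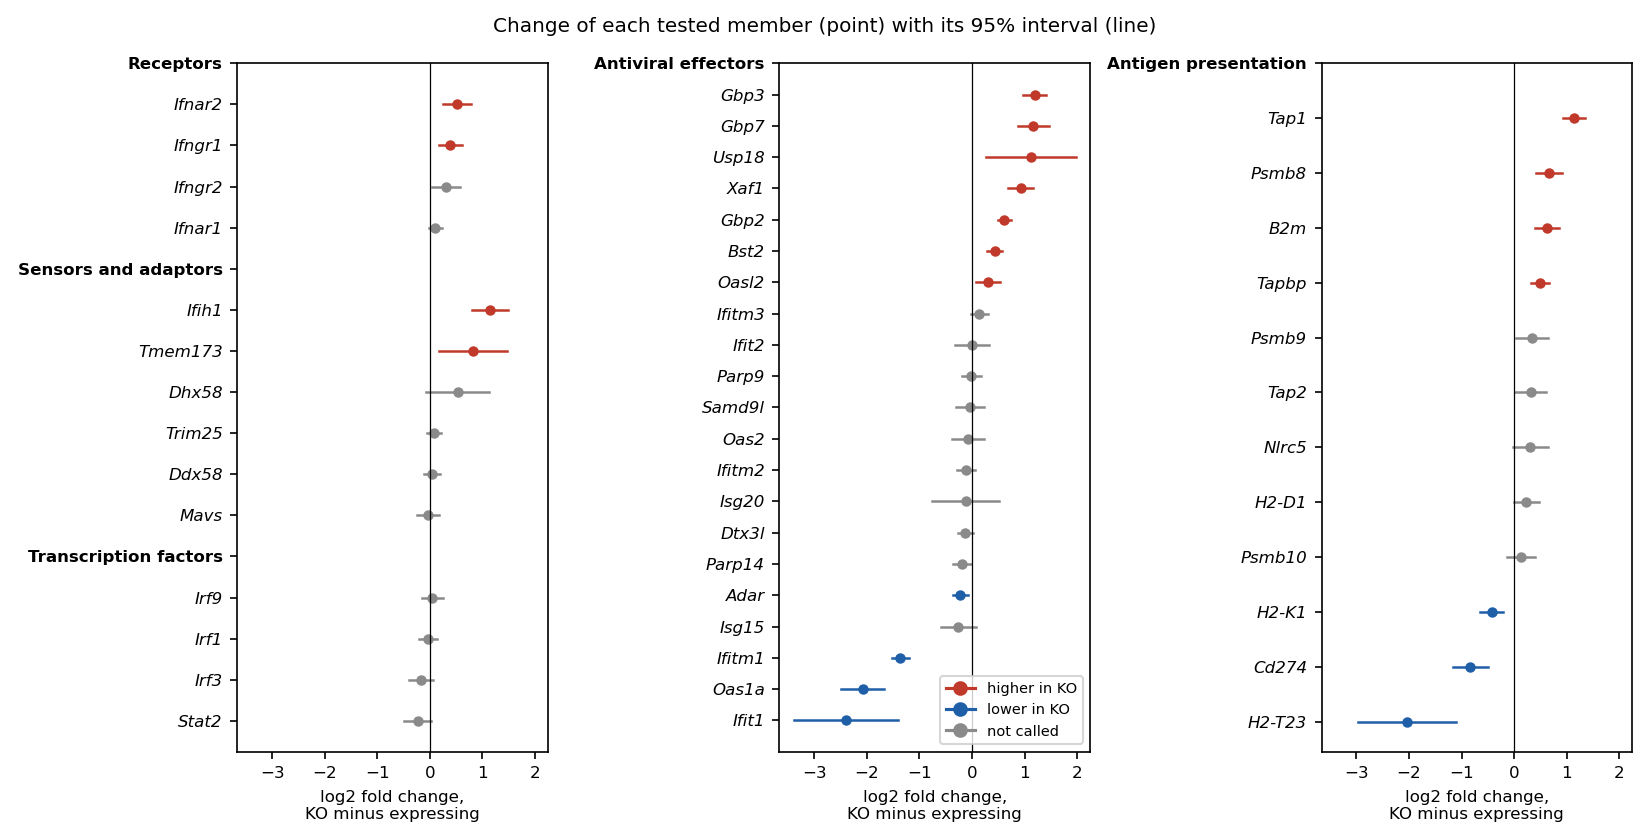
Log2 fold change (KO-labelled minus expressing, horizontal axis) of each of the 47 tested genes with its 95% interval, by role; red points were called higher, blue lower and grey not called. The largest rise is that of Gbp3 at 1.19 and the largest fall that of Ifit1 at -2.40, and the 4 tested transcription factors lie between -0.23 and 0.05.

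Promoter windows from 250 bases before to 50 bases after the start site were in the RefSeq table (GRCm38.p6) for 43 of the 53 genes. The core of the interferon-stimulated response element was searched as GAAANNGAAA on both strands (TTTCNNTTTC on the other strand). It was found in the windows of 16 of these 43 genes (37.2%), against 3.99% of all 27025 genes with a window. The gamma-activated sequence, searched as TTCNNNGAA, which reads the same on both strands, was found in 11 (25.6%), against 9.55% of all genes. A match to either motif may share bases with a match to the other. Of the 16 genes with a response element core, 6 were higher, 3 lower, 5 not called and 2 not tested. These are 46.2% of 13 higher, 42.9% of 7 lower, 26.3% of 19 uncalled and 50% of 4 untested genes with a window. The shares in higher and lower genes were thus alike, and a link between core and call was not tested. Of the 3 lower genes with a core, Ifit1 and H2-T23 passed the count filter only through the expressing libraries, which leaves Oas1a as the lower gene that did not. A match describes letters and does not show that a factor was bound. The following stretches belong to the 6 called genes with a core and the largest changes, and are printed so that the cores of genes called higher and lower can be compared: Ifit1 (chr19:34640739-34640888, plus strand), Oas1a (chr5:120907526-120907675, minus strand) and H2-T23 (chr17:36032702-36032851, minus strand) fell, and Gbp3 (chr3:142559894-142560043, plus strand), Gbp7 (chr3:142530186-142530335, plus strand) and Ifih1 (chr2:62646206-62646235, minus strand) rose. Each is the 150 bases before the start site in the direction of the gene, except Ifih1, for which 30 bases (positions 21 to 50 after the start) are shown, and capitals mark the response element cores.
Ifit1: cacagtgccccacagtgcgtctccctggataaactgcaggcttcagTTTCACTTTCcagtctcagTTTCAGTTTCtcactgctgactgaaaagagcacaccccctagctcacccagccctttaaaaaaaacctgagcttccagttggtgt
Oas1a: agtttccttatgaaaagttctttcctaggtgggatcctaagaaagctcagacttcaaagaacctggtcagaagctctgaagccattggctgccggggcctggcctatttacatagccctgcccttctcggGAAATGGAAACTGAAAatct
H2-T23: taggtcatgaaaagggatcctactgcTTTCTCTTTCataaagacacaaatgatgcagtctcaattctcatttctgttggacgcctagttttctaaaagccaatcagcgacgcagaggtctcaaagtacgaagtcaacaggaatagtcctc
Gbp3: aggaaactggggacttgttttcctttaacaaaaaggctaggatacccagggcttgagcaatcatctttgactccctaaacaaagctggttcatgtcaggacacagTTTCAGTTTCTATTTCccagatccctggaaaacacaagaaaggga
Gbp7: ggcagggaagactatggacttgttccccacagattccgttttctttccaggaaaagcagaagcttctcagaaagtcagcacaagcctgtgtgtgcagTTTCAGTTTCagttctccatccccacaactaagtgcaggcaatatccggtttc
Ifih1: gagaagagaatcGAAACAGAAAccgatctg

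Ifit1 had its 2 cores starting 104 and 85 bases before the start site, Oas1a had 2 overlapping cores starting 20 and 14 bases before it, and H2-T23 had 1 core 124 bases before it. Gbp3 also had 2 overlapping cores, starting 45 and 39 bases before the start site, and Gbp7 had 1 core 53 bases before it. The 10 letters of the Gbp7 core, TTTCAGTTTC, also stand in the Gbp3 and Ifit1 stretches. The same core on the other strand, GAAACTGAAA, stands in the Oas1a stretch and in the windows of B2m and Bst2. The remaining called genes with a core were B2m, Gbp2 and Bst2, all higher.

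**Figure D2:**
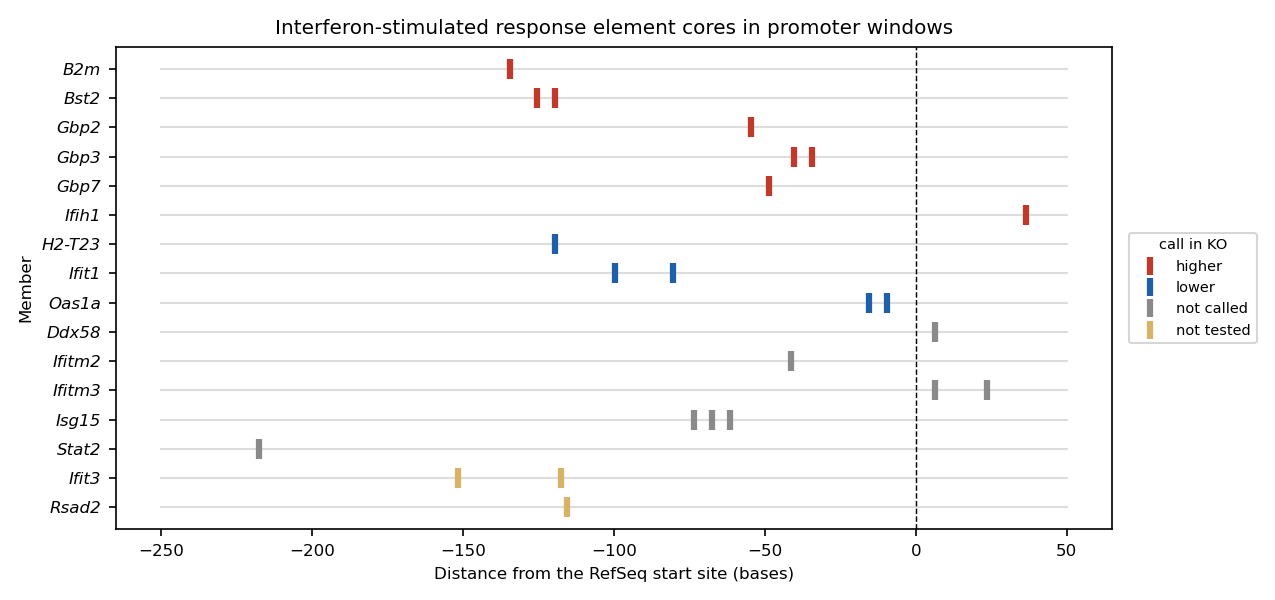
Distance of each response element core from the RefSeq start site (bases, horizontal axis) in the 16 genes that hold one, coloured by call. Cores of higher genes (red) and lower genes (blue) are both found within 150 bases before the start site, and the core of Ifih1 lies after it.

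All 4 receptor chains were transcribed, and both chains that changed were higher. Ifnar2, a chain of the type I interferon receptor (chr16:91372783-91405589), had 212, 265 and 197 counts in the expressing and 274, 422 and 445 in the KO-labelled libraries, and went from 6.07 ± 0.702 to 8.61 ± 0.753 CPM (SD over n = 3 libraries; log2 fold change 0.51 with an SE of 0.118, adjusted p = 0.00765, edgeR). Its partner Ifnar1, the receptor gene with the highest level per length (11.8 CPM per kilobase, mean of all libraries), had 2150, 2981 and 2440 counts in the expressing and 2478, 3355 and 3785 in the KO-labelled libraries, and a log2 fold change of 0.11 (95% interval -0.02 to 0.23, adjusted p = 0.164). Ifngr1, which binds interferon gamma, had 205, 304 and 239 counts in the expressing and 281, 420 and 456 in the KO-labelled libraries, and rose 1.31-fold (log2 fold change 0.39 with an SE of 0.0981, adjusted p = 0.0113). Ifngr2, its signalling partner, had a log2 fold change of 0.31 (95% interval 0.05 to 0.57, adjusted p = 0.0584). The Ifngr1 call was lost without KO replicate 2 (adjusted p = 0.0537), while Ifnar1 (adjusted p = 0.0102) and Ifngr2 (adjusted p = 0.0006) were called higher without expressing replicate 1. The summed receptor level was 16.8 to 18 CPM per kilobase in the expressing and 19.3 to 20.8 in the KO-labelled libraries, and these ranges did not overlap.

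Of the 6 sensor and adaptor genes, 2 rose (33.3%) and 0 fell, where 19.2% of all tested genes were higher and 20.8% lower. DESeq2 called 1 of the 6 higher and 0 lower. Ifih1, which encodes MDA5, a cytosolic sensor of long double-stranded RNA (chr2:62595798-62646255), had 43, 68 and 57 counts in the expressing and 109, 170 and 155 in the KO-labelled libraries. It went from 1.49 ± 0.1 to 3.3 ± 0.412 CPM (SD over n = 3 libraries; log2 fold change 1.14 with an SE of 0.153, adjusted p = 0.000398), a 2.2-fold rise, and every KO-labelled library was above every expressing one. Tmem173, which encodes the DNA-sensing adaptor STING, had only 8, 18 and 10 counts in the expressing and 18, 27 and 30 in the KO-labelled libraries (log2 fold change 0.83 with an SE of 0.289, adjusted p = 0.0462). Its call was lost in 8 of the 13 alternative analyses that tested it, among them without expressing replicate 1 (adjusted p = 0.103) or 3 (0.134) and without KO replicate 1 (0.077), 2 (0.122) or 3 (0.122).

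The sensor genes with the highest levels per length did not pass the test. Trim25, a ubiquitin ligase that acts on RIG-I, had 5486, 7438 and 6244 counts in the expressing and 6208, 7829 and 9854 in the KO-labelled libraries, with a log2 fold change of 0.07 (95% interval -0.06 to 0.21, adjusted p = 0.337). It was called higher without expressing replicate 1 (log2 fold change 0.12, adjusted p = 0.014). Ddx58, which encodes RIG-I, a sensor of RNA with a terminal triphosphate, had 1364, 2073 and 1658 counts in the expressing and 1571, 2040 and 2528 in the KO-labelled libraries, with a log2 fold change of 0.03 (95% interval -0.12 to 0.18, adjusted p = 0.721). Mavs, the mitochondrial adaptor of both RNA sensors, had 635, 765 and 672 counts in the expressing and 606, 907 and 885 in the KO-labelled libraries, with -0.04 (95% interval -0.25 to 0.18, adjusted p = 0.794). In these 3 genes the groups overlapped. Dhx58, which encodes the related helicase LGP2, was scarce, at 0.768 ± 0.171 CPM in the expressing and 1.13 ± 0.293 CPM in the KO-labelled libraries (SD, n = 3), and was not called (adjusted p = 0.144). Per length, MDA5 transcript was far below RIG-I transcript, at 0.294 against 6.51 CPM per kilobase (means of all libraries).

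None of the 4 transcription factors tested was called, with log2 fold changes from -0.23 to 0.05; edgeR and DESeq2 each called 0, and 0 had an unadjusted p under 0.05 in edgeR. Irf1, which binds promoters of interferon gamma targets and class I genes, had 3889, 4623 and 4023 counts in the expressing and 3987, 5154 and 5348 in the KO-labelled libraries, with a log2 fold change of -0.03 (95% interval -0.21 to 0.14, adjusted p = 0.774). Irf3, which is activated below the sensors, had 843, 933 and 829 counts in the expressing and 757, 947 and 1047 in the KO-labelled libraries, with -0.17 (95% interval -0.39 to 0.05, adjusted p = 0.2). Stat2 had 606, 719 and 537 counts in the expressing and 464, 646 and 779 in the KO-labelled libraries, with -0.23 (95% interval -0.48 to 0.02, adjusted p = 0.122), and its DNA-binding partner Irf9 had 0.05 (95% interval -0.15 to 0.24, adjusted p = 0.69). Removing the GC trend brought Stat2 under the threshold (log2 fold change -0.21, adjusted p = 0.0432). Irf7, which amplifies interferon production, was under the count filter and not tested, with 0, 2 and 0 counts in the expressing and 2, 10 and 7 in the KO-labelled libraries.

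The 3 guanylate-binding protein genes among the 53, which encode large GTPases that attack vacuoles of intracellular pathogens, rose. They lie near each other on chromosome 3, Gbp7 at chr3:142530342-142550149, Gbp3 at chr3:142560026-142573209 and Gbp2 at chr3:142620602-142638008, all on the plus strand. Gbp3 had 328, 581 and 465 counts in the expressing and 991, 1234 and 1428 in the KO-labelled libraries, and went from 12.1 ± 1.43 to 27.8 ± 0.533 CPM (SD over n = 3 libraries; log2 fold change 1.19 with an SE of 0.0946, adjusted p = 2.06e-05). Gbp7 had 140, 287 and 208 counts in the expressing and 463, 562 and 624 in the KO-labelled libraries, from 5.56 ± 1.02 to 12.6 ± 0.603 CPM (log2 fold change 1.17 with an SE of 0.131, adjusted p = 0.000138). Gbp2, the member with the highest level of this family (41.3 CPM per kilobase), had 2474, 3713 and 3022 counts in the expressing and 4437, 5572 and 6559 in the KO-labelled libraries, from 82.1 ± 2.53 to 126 ± 2.06 CPM (log2 fold change 0.62 with an SE of 0.0558, adjusted p = 4.28e-05). All KO-labelled libraries were above all expressing libraries in each, by 2.28-fold, 2.25-fold and 1.53-fold in the group means. Outside the 53 genes, Gbp4 on chromosome 5, chosen after its values were seen, was lower (log2 fold change -0.52, adjusted p = 0.00504), and Gbp5 and Gbp6 were under the count filter. Genes of this family resemble each other in sequence, and reads that fit several of them may have been split or dropped in the counting.

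A further 4 effectors were higher. Xaf1, an interferon-induced promoter of apoptosis (chr11:72301629-72313733), had 131, 178 and 137 counts in the expressing and 280, 341 and 373 in the KO-labelled libraries, and went from 3.99 ± 0.227 to 7.61 ± 0.401 CPM (SD over n = 3 libraries; log2 fold change 0.93 with an SE of 0.106, adjusted p = 0.000152). Bst2, or tetherin, which holds budding virus at the cell surface, had 1338, 1717 and 1489 counts in the expressing and 1952, 2448 and 2821 in the KO-labelled libraries, from 40.9 ± 1.97 to 55 ± 0.87 CPM (log2 fold change 0.43 with an SE of 0.0643, adjusted p = 0.000745). Usp18, which removes ISG15 from proteins and dampens receptor signalling (chr6:121245906-121270917), had only 4, 11 and 8 counts in the expressing and 21, 20 and 17 in the KO-labelled libraries (log2 fold change 1.12 with an SE of 0.381, adjusted p = 0.0415). Oasl2, a member of the oligoadenylate synthetase family, went from 8.91 ± 0.415 to 11 ± 0.95 CPM (log2 fold change 0.31 with an SE of 0.0985, adjusted p = 0.0333). The last 2 calls were not stable. The Usp18 call was lost in 7 of the 13 alternatives that tested it (adjusted p from 0.0282 to 0.131 over all of them), among them without any of expressing replicates 1, 2 and 3 (0.0769, 0.0555 and 0.088) and without KO replicate 1 (0.131) or 2 (0.0961). The Oasl2 call was lost in 5 of 14 (adjusted p from 0.0021 to 0.136), among them without expressing replicate 2 (0.0815) or 3 (0.103) and without KO replicate 1 (0.088) or 2 (0.136).

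The 4 effectors that fell come from 4 different families. Ifitm1, which encodes a small membrane protein that hinders viral entry (chr7:140967221-140969825), had 2787, 3423 and 2940 counts in the expressing and 1087, 1434 and 1699 in the KO-labelled libraries. It went from 82.5 ± 6.09 to 32 ± 0.894 CPM (SD over n = 3 libraries; log2 fold change -1.37 with an SE of 0.0721, adjusted p = 2.66e-06), which is 2.58 times as high in the expressing libraries. Its neighbours on chromosome 7 with the same kind of product stand among the effectors with the highest levels per length, and neither passed the test. Ifitm3 had 3737, 4548 and 3776 counts in the expressing and 4320, 5335 and 6076 in the KO-labelled libraries, with a log2 fold change of 0.14 (95% interval -0.02 to 0.30, adjusted p = 0.142), and was called higher without expressing replicate 1 (0.24, adjusted p = 8.68e-06). Ifitm2 had 1394, 1756 and 1594 counts in the expressing and 1267, 1824 and 2119 in the KO-labelled libraries, with -0.12 (95% interval -0.29 to 0.05, adjusted p = 0.248). Ifitm1 stood at 81.6, 71 and 73.6 CPM per kilobase in the expressing and 28.5, 29.1 and 30.1 in the KO-labelled libraries, while Ifitm2 and Ifitm3 together stood at 245, 213 and 219 and 238, 236 and 236. The difference between these genes in their response was not tested, and their sequences are alike.

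Oas1a, an oligoadenylate synthetase that is switched on by double-stranded RNA (chr5:120896256-120907521), had 109, 134 and 116 counts in the expressing and 20, 40 and 41 in the KO-labelled libraries. It went from 3.24 ± 0.233 to 0.752 ± 0.161 CPM (log2 fold change -2.08 with an SE of 0.181, adjusted p = 3.62e-05), and was 4.22 times as high in the expressing libraries. Near-identical copies of this gene neighbour it, so reads may have been shared among them. Ifit1, which binds viral RNA that lacks cap methylation (chr19:34640871-34650009), had 26, 23 and 23 counts in the expressing and 1, 8 and 7 in the KO-labelled libraries (log2 fold change -2.40 with an SE of 0.441, adjusted p = 0.00225). Its counts were low in every library, and KO replicate 1, with a single count, was under the floor of 3 counts. Its neighbour Ifit2 had 3.93 ± 0.626 CPM in the expressing and 3.98 ± 0.32 CPM in the KO-labelled libraries, with a log2 fold change of 0.01 (95% interval -0.32 to 0.33, adjusted p = 0.977). Adar, which edits adenosine to inosine in double-stranded RNA, was slightly lower, from 97 ± 5.99 to 83.4 ± 0.689 CPM (log2 fold change -0.22 with an SE of 0.0626, adjusted p = 0.0206). The Adar call was lost in 5 of 14 alternatives (adjusted p from 0.00135 to 0.183), among them scaling by library totals (0.183), and leaving out expressing replicate 3 (0.053) or KO replicate 1 (0.068), 2 (0.0777) or 3 (0.0851). Its log2 fold change was -0.13 with library totals and -0.14 without expressing replicate 1.

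The other 10 tested effectors, Ifitm2, Ifitm3 and Ifit2 among them, were not called, with log2 fold changes from -0.26 to 0.14. Isg15, the ubiquitin-like modifier that is among the most widely used readouts of interferon signalling, was at 2.14 ± 0.138 CPM in the expressing and 1.8 ± 0.161 CPM in the KO-labelled libraries (SD, n = 3), with a log2 fold change of -0.26 (95% interval -0.59 to 0.08, adjusted p = 0.197). Parp9 and its partner ubiquitin ligase Dtx3l, which overlap on opposite strands, had -0.01 and -0.13, and Parp14, a related ADP-ribosyltransferase, had -0.19. Without expressing replicate 1 Parp14 was called lower (-0.20, adjusted p = 0.0179). Samd9l had -0.04, Oas2 -0.08 and the exonuclease gene Isg20 -0.12. The 5 effectors under the count filter were Mx1 (totals of 10 and 27 counts over the 3 expressing and the 3 KO-labelled libraries), Mx2 (29 and 23), Rsad2 (26 and 36), Ifit3 (4 and 13) and Oasl1 (18 and 5). Mx1 and Mx2 encode dynamin-like antiviral GTPases and Rsad2 encodes viperin, all classical interferon targets, and changes in them were not assessed. The summed effector level overlapped between groups, at 409.9 to 452 and 425 to 431 CPM per kilobase.

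**Figure D3:**
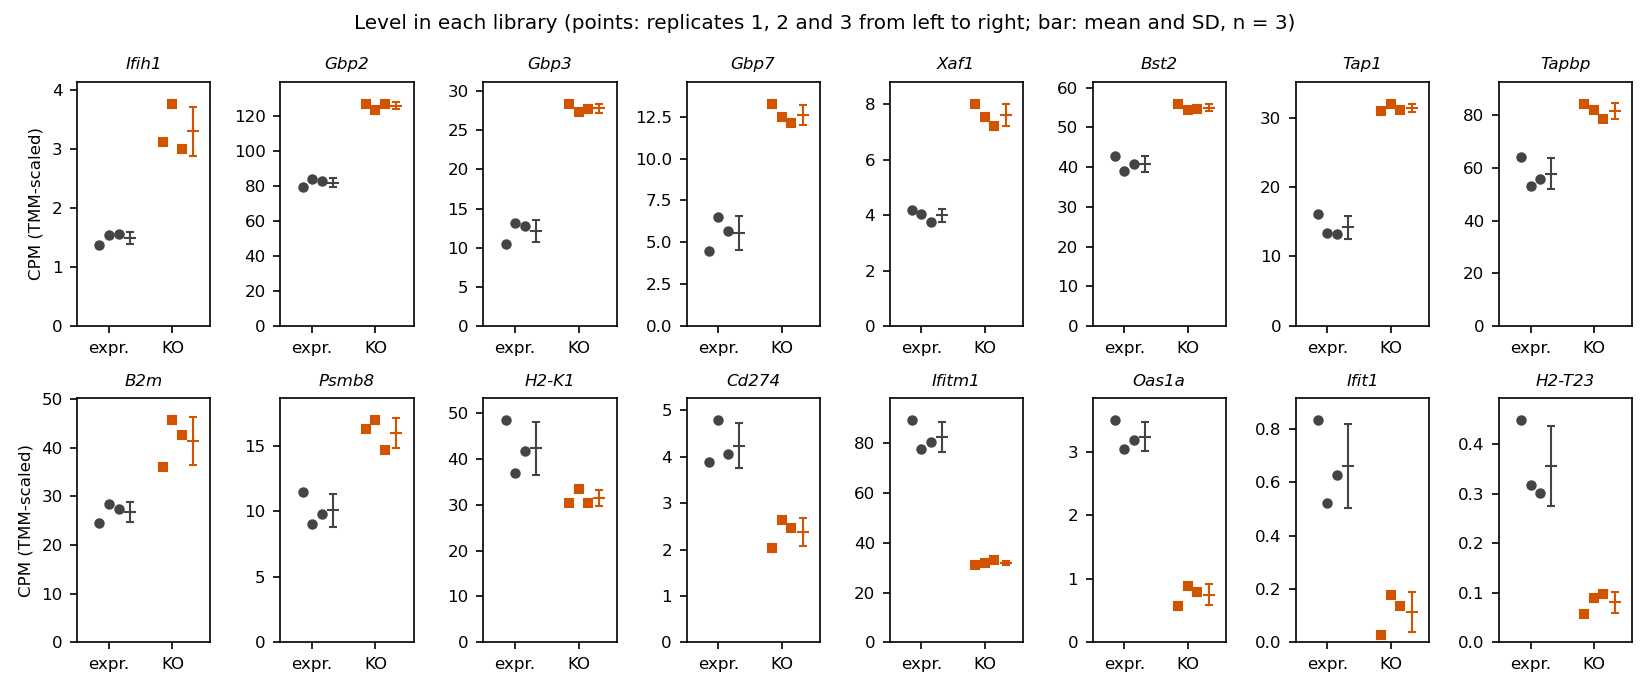
CPM scaled by TMM (vertical axis, from 0) in each library for 10 genes called higher and 6 called lower; points are replicates, bars the mean and SD of 3. In every panel the 3 KO-labelled points (squares) lie all above or all below the 3 expressing points (circles). Only called genes are shown, and none of the called genes overlapped between groups, so this separation adds no support. Ifit1 and H2-T23 passed the count filter only through the expressing libraries.

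Of the 12 antigen presentation genes, 4 rose (33.3%) and 3 fell (25%), where 19.2% of all tested genes were higher and 20.8% lower. The 3 that fell include Cd274, which is not a part of antigen presentation. They also include H2-T23, which passed the count filter only through the expressing libraries. Tap1, a subunit of the peptide transporter (chr17:34187553-34197225), had 503, 588 and 483 counts in the expressing and 1082, 1443 and 1604 in the KO-labelled libraries. It went from 14.2 ± 1.64 to 31.4 ± 0.553 CPM (SD over n = 3 libraries; log2 fold change 1.14 with an SE of 0.0911, adjusted p = 2.08e-05), a 2.21-fold rise. Tapbp, or tapasin, which bridges the transporter and empty class I molecules, had 2006, 2350 and 2044 counts in the expressing and 2943, 3692 and 4045 in the KO-labelled libraries, from 57.8 ± 5.73 to 81.6 ± 3 CPM (log2 fold change 0.50 with an SE of 0.0787, adjusted p = 0.00102). B2m, the light chain of every class I molecule (chr2:122147686-122153083), had 762, 1252 and 999 counts in the expressing and 1253, 2056 and 2196 in the KO-labelled libraries, from 26.7 ± 2.06 to 41.4 ± 4.95 CPM (log2 fold change 0.63 with an SE of 0.101, adjusted p = 0.00105). Psmb8, a catalytic subunit of the immunoproteasome, the form of the proteasome that interferon gamma induces (chr17:34197721-34201454), had 358, 397 and 358 counts in the expressing and 569, 764 and 759 in the KO-labelled libraries, from 10.1 ± 1.26 to 16 ± 1.15 CPM (log2 fold change 0.67 with an SE of 0.109, adjusted p = 0.00121). In these 4 genes all KO-labelled libraries were above all expressing ones.

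The 3 genes of this set that fell encode surface proteins, but so do B2m, which rose, and H2-D1, which was not called. H2-K1, a classical class I heavy chain, went from 42.3 ± 5.78 to 31.4 ± 1.74 CPM (SD over n = 3 libraries; log2 fold change -0.43 with an SE of 0.101, adjusted p = 0.0083), with 1510, 1626 and 1522 counts in the expressing and 1059, 1506 and 1570 in the KO-labelled libraries. Cd274, which encodes the checkpoint ligand PD-L1 (chr19:29367455-29388095), had 121, 211 and 148 counts in the expressing and 71, 119 and 127 in the KO-labelled libraries, from 4.24 ± 0.482 to 2.38 ± 0.31 CPM (log2 fold change -0.83 with an SE of 0.147, adjusted p = 0.00186). H2-T23, a nonclassical heavy chain (chr17:36029773-36032855), had only 14, 14 and 11 counts in the expressing and 2, 4 and 5 in the KO-labelled libraries (log2 fold change -2.03 with an SE of 0.413, adjusted p = 0.00388). H2-D1, the other classical heavy chain, was not called, at 17.3 ± 2.54 CPM in the expressing and 20.4 ± 0.91 CPM in the KO-labelled libraries, with a log2 fold change of 0.23 (95% interval -0.01 to 0.47, adjusted p = 0.109). The heavy chain genes of this locus are alike in sequence and vary between strains, so their counts may be split or lost.

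Of the remaining members of this set, Tap2, which pairs with TAP1, had a log2 fold change of 0.31 (95% interval 0.02 to 0.60, adjusted p = 0.079), and Psmb9 had 0.34 (95% interval 0.04 to 0.64, adjusted p = 0.0717). Psmb10, among the 3 antigen presentation genes with the highest level per length (22.1 CPM per kilobase, against 39.6 for B2m and 19.2 for Tapbp), had 1341, 1332 and 1259 counts in the expressing and 1423, 1800 and 1920 in the KO-labelled libraries, with 0.13 (95% interval -0.13 to 0.40, adjusted p = 0.393). Nlrc5, the transactivator of class I genes, had 0.31 (95% interval -0.03 to 0.64, adjusted p = 0.131). These 4 genes and H2-D1 were all called higher without expressing replicate 1 (adjusted p = 0.000569 for Tap2, 0.0165 for Psmb9, 8.83e-05 for Psmb10, 0.00289 for Nlrc5 and 9.01e-05 for H2-D1), which made 9 of 12 higher and 3 lower. The same counts were reached with the GC trend removed. Without KO replicate 3, Tap2 (0.0419) and Psmb9 (0.0369) were called as well, for 6 higher. The 3 falls kept their calls without expressing replicate 1, H2-K1 with a log2 fold change of -0.29. In all 12 genes the direction was the same under the 14 alternatives wherever the gene was tested.

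**Figure D4:**
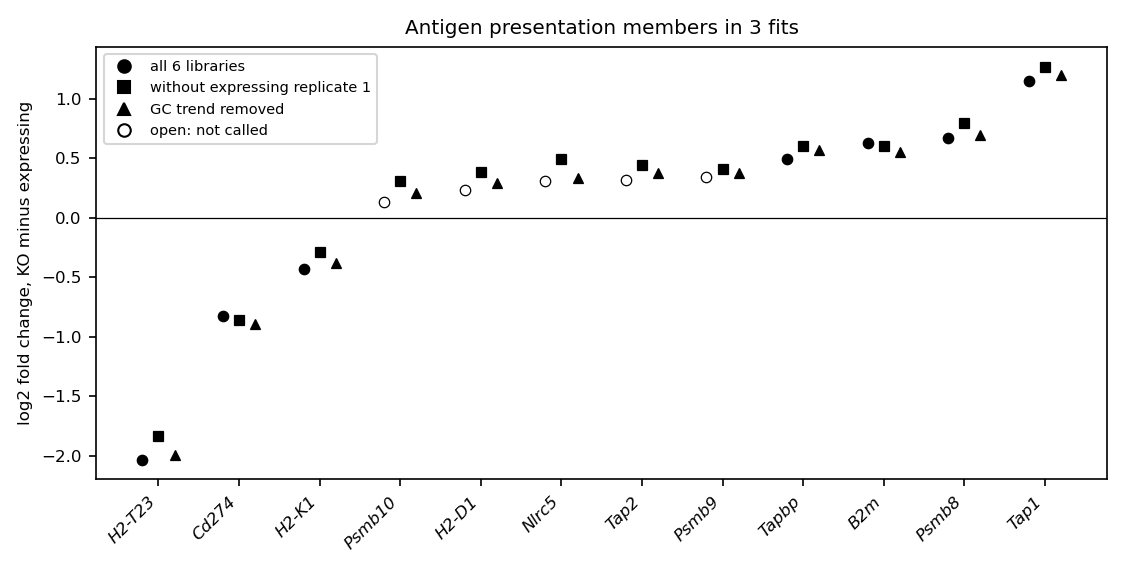
Log2 fold change (KO-labelled minus expressing, vertical axis) of the 12 antigen presentation genes in the analysis of all 6 libraries (circles), without expressing replicate 1 (squares) and with the GC trend removed (triangles); open symbols were not called. Psmb10, H2-D1, Nlrc5, Tap2 and Psmb9 are open only in the analysis of all 6 libraries, at 0.13 to 0.34.

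On chromosome 17, Psmb9, Tap1, Psmb8 and Tap2 follow each other from position 34181987 to 34216321, and 8 of the 12 genes lie in the wider MHC region. Tap1 and Psmb9 start next to each other on opposite strands, and their promoter windows share 275 bases (chr17:34187306-34187580), in which neither searched motif was found. Their log2 fold changes stood at 1.14 and 0.34, and the difference between them was not tested. Exons of the pair overlap, so reads near the start are uncertain unless the counting used strand. Psmb8, on the other side of Tap1, had 0.67.

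Immunoproteasome subunits replace constitutive catalytic subunits, Psmb8 taking the place of Psmb5, Psmb9 of Psmb6 and Psmb10 of Psmb7. All 3 constitutive genes fell: Psmb5 had a log2 fold change of -0.49 (adjusted p = 0.00915), Psmb6 -0.28 (0.0194) and Psmb7 -0.25 (0.00505). The immunoproteasome share of these 6 transcripts, in CPM per kilobase, read 12.4, 10.2 and 11% in the expressing and 15.8, 15.4 and 14.5% in the KO-labelled group. These ranges of the share did not overlap, and the constitutive transcripts remained the majority in each library. The immunoproteasome sums themselves overlapped, at 29.7, 21.4 and 24.1 CPM per kilobase in the expressing and 30.2, 29.8 and 27.3 in the KO-labelled libraries. The constitutive sums did not, at 189 to 209 and 161 to 164, so the separation of the share rests on their fall. B2m stood at 28.4, 33 and 31.8 CPM per kilobase in the expressing and 41.8, 53 and 49.5 in the KO-labelled libraries. The heavy chains H2-K1 and H2-D1 together stood at 24.3, 19 and 20.1 and 18.1, 19.7 and 18, where the ranges overlapped, with expressing replicate 1 the highest. These sums are a description, and no test was made on them.

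**Figure D5:**
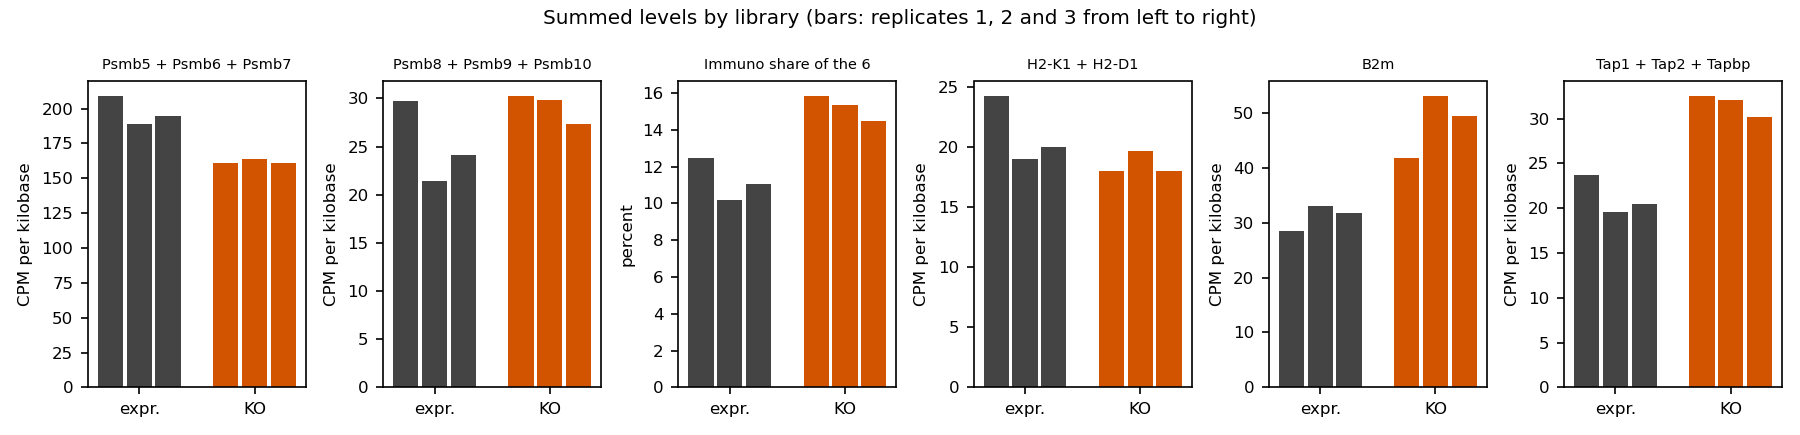
Summed levels in each library (vertical axes from 0, CPM per kilobase, or percent for the immunoproteasome share) of constitutive and immunoproteasome subunits, heavy chains, B2m and the loading genes; each bar is 1 library. The immunoproteasome share is 10.2 to 12.4% in expressing and 14.5 to 15.8% in KO-labelled libraries, while the immunoproteasome sums and the heavy chain sums overlap between groups.

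Interferon transcripts were at or near 0. Of 9 interferon genes listed, 7 (Ifnb1, Ifna1, Ifna2, Ifne, Ifng, Ifnl2 and Ifnl3) had 0 counts in all 6 libraries, Ifna4 had totals of 1 and 5 counts and Ifnk of 0 and 2. A floor of 3 counts corresponds to 0.0581 to 0.0961 CPM per library, so levels below this were not detectable.

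Among 17 further genes of interferon signalling, all tested, 5 were higher (29.4%) and 2 lower (11.8%), where 19.2% and 20.8% of all tested genes were. Irf2, a relative of IRF1 that competes for its sites, had 34, 70 and 70 counts in the expressing and 137, 246 and 244 in the KO-labelled libraries (log2 fold change 1.61 with an SE of 0.203, adjusted p = 0.000275). Jak2, a kinase of the interferon gamma receptor among others, had 458, 763 and 666 counts in the expressing and 1002, 1395 and 1602 in the KO-labelled libraries (log2 fold change 0.85 with an SE of 0.0926, adjusted p = 0.000117). Tlr3, an endosomal sensor of double-stranded RNA, had a log2 fold change of 0.57 (adjusted p = 0.0241), and Ikbke, a kinase of the IRF factors, 0.48 (0.0237). Jak2 was the most abundant of these 4 genes per length, at 4.67 CPM per kilobase.

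Of 39 other interferon-stimulated genes 33 were tested, 11 were higher (33.3%) and 7 lower (21.2%, near the 20.8% of all tested genes), with a median log2 fold change of 0.00. The largest changes were those of Sp100, a nuclear body protein (2.55, adjusted p = 0.000882), with 4, 2 and 5 counts in the expressing and 23, 25 and 30 in the KO-labelled libraries, and Oas1g (-1.77, adjusted p = 0.00158), with 36, 63 and 48 counts in the expressing and 18, 9 and 23 in the KO-labelled libraries. Ifi27 was higher as well (1.69, adjusted p = 0.00962). Oas1g and Oas1a, adjacent on chromosome 5 and alike in sequence, were both lower. Sp100 and Ifi27 passed the count filter only through the KO-labelled libraries and Oas1g only through the expressing ones. The filter itself therefore favoured a difference in these 3, and their calls give no separate support.

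Of 19 further antigen presentation genes 4 were higher and 4 lower, 21.1% each way, which is near the 19.2% and 20.8% of all tested genes. The 4 lower genes were H2-Q4 and the constitutive subunits Psmb5, Psmb6 and Psmb7, which immunoproteasome subunits replace. The balance of this list therefore rests on those subunits. Erap1, which trims peptides in the endoplasmic reticulum, went from 77.3 ± 9.87 to 117 ± 5.42 CPM (SD over n = 3 libraries; log2 fold change 0.60 with an SE of 0.092, adjusted p = 0.000875). Psme2, a subunit of the proteasome activator that interferon gamma induces, went from 56.5 ± 2.45 to 75.9 ± 2.32 CPM (log2 fold change 0.43 with an SE of 0.0621, adjusted p = 0.00062). H2-Q4, a nonclassical heavy chain, had -0.32 (adjusted p = 0.0498). Of 6 class II genes, which professional antigen-presenting cells use, 4 were tested. H2-Eb1 had 29, 27 and 30 counts in the expressing and 44, 68 and 70 in the KO-labelled libraries (log2 fold change 0.83 with an SE of 0.212, adjusted p = 0.0125), and H2-Ab1 had 42, 43 and 42 counts in the expressing and 22, 32 and 37 in the KO-labelled libraries (log2 fold change -0.73 with an SE of 0.212, adjusted p = 0.0217). Over all 90 further pathway genes 73 were tested. Of these 21 were higher (28.8%, against 19.2% of all tested genes) and 14 lower (19.2%, near the 20.8% of all tested genes). Without KO replicate 1, 9 were lower, and so were 2779 of all 18449 tested genes.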

How the data were processed

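Poly(A) RNA of 6 libraries of mouse ES cells was sequenced, and groups were taken from the sample titles. The deposited table holds raw read counts per Ensembl gene, made by the authors with cutadapt 1.10, STAR 2.5.3a and HTSeq 0.6.1p1 on mm10, per the submitters' processing notes. The kit marks strand, but the strand setting of the counting is not given in the sources used here, so reads of overlapping genes (17 of the 53 overlap a gene on the opposite strand, 6 on the same strand) may not be separated. Among called genes this concerns Gbp2, Usp18, Adar, Tap1, Tapbp, Psmb8 and Cd274 (opposite strand) and Ifnar2, Gbp7 and Tapbp (same strand). No molecular identifiers are named in the sources used here, so floors cover counting error only.

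The counts were tested with edgeR 4.0.16 under R 4.3.3: filterByExpr (minimum count 10, minimum total 15) left 17778 genes, libraries were scaled by TMM, and the group was the only term of the robust quasi-likelihood fit (glmQLFit, glmQLFTest). Benjamini-Hochberg adjustment covered the whole table of tested genes, with a threshold of 0.05. Standard errors come from the test statistic. All tests are two-sided. The step was run on simulated data with 200 changed genes and no outlying library or GC trend. That run cannot show how calls behave in these data, where far more genes were called. Separate dishes may share a starting culture, so the spread between libraries may be partly technical. Symbols, positions and exon lengths (GENCODE M21, build mm10) were matched for 55141 of 55401 identifiers. Per-length levels are TMM-scaled CPM divided by exon kilobases. Alternatives were other scalings, no filter, 1 CPM in 3 libraries, a replicate block, a GC trend removed, each library left out, and DESeq2 1.42.0.

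Members and lists were chosen with earlier results of these data known. The naming rule gave counts per library for called genes with an absolute log2 fold change of at least 0.5 and for the 3 genes of each role with the highest level per length, and, of further pathway genes, up to 4 called per list with the largest change plus the constitutive proteasome subunits. Counts given for other genes were added as description. A further pathway gene that the rule names is not reported here. Printed promoters are called genes with a response element core, largest change first, at most 6. The 10 members without a promoter entry were Dhx58, Tmem173, Oas2, Usp18, Mx1, Mx2, Parp9, Parp14, Tap2 and Nlrc5.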

Additional observations from a re-analysis of the deposited data

How the results depend on the processing

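Of the 22 called genes, 17 kept their call and direction in each of the 14 alternatives in which they were tested; the exceptions were Tmem173, Usp18, Oasl2, Adar and Ifngr1. A call was gained somewhere by 12 genes. The number of higher antigen presentation genes went from 4 to 9 with the GC trend removed, with or without the replicate block, and ran from 4 to 9 when 1 library was left out (9 without expressing replicate 1). Higher calls over all genes moved as well, from 3422 to 4320 with the GC trend removed and to 4851 without expressing replicate 1. The number of higher receptors, sensors and factors ran from 2 to 6 when 1 library was left out (2 without KO replicate 2), and 1 such gene (Stat2) was lower with the GC trend removed. Lower further pathway genes ran from 9 to 14 when 1 library was left out, with 9 without KO replicate 1. The cause was not tested.

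With the replicate number as a block, 12 of the 53 genes were higher and 7 lower, and Tmem173, Usp18 and Oasl2 lost their calls. Over all 17778 tested genes 3243 were higher and 3401 lower in that fit. Same-numbered libraries did not deviate together across genes (correlations 0.0236, -0.0342 and 0.0419), and the numbers were not treated as pairs in the analysis reported. With so few libraries these correlations cannot show whether same-numbered dishes shared a day or a culture.

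Reversals of sign were found in 8 genes, all uncalled in each analysis. Ddx58 (0.03) had -0.0157 with GC trend removed, -0.0166 with replicate block with GC trend removed and -0.00621 to 0.0579 over the analyses that leave out 1 library. Mavs (-0.04) had 0.0537 with library totals, 0.00331 with GC trend removed, 0.00225 with replicate block with GC trend removed and -0.112 to 0.0573 over the analyses that leave out 1 library. Irf1 (-0.03) had 0.0569 with library totals and -0.0859 to 0.0706 over the analyses that leave out 1 library. Ifit2 (0.01) had -0.0642 with GC trend removed, -0.0631 with replicate block with GC trend removed and -0.0647 to 0.139 over the analyses that leave out 1 library. Oas2 (-0.08) had 0.015 with library totals. Isg20 (-0.12) had -0.338 to 0.0371 over the analyses that leave out 1 library. Parp9 (-0.01) had 0.000222 with DESeq2 size factors, 0.0788 with library totals, 0.000483 with DESeq2 and -0.0574 to 0.0449 over the analyses that leave out 1 library. Samd9l (-0.04) had 0.0539 with library totals and -0.142 to 0.0751 over the analyses that leave out 1 library. Libraries of 31219328 to 50328010 counts limit genes near 0.244 CPM, the level of the count filter. Irf7, Ifit3, Oasl1, Mx1, Mx2 and Rsad2 did not pass this filter and were not tested in the analysis reported. The 3 libraries per group, and the GC-related deviation of expressing replicate 1 (correlation 0.553 across genes, which are not independent replicates), limit calls of small changes.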
